A study of Mus musculus with 12 samples.

Results

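The collagen genes were followed through treatment of a mouse glioblastoma with temozolomide (TMZ), an alkylating drug, with an antibody against the T cell checkpoint receptor PD-1, or with both. Members were all genes whose single symbol in the array annotation has the form of a collagen chain, Col followed by a type number, a and a chain number. They came to 44 of the 22180 genes with a single symbol, and for a gene with several probe sets the brightest on average was used. GL261 cells, a mouse glioma line that grows in immunocompetent C57BL/6 mice, were placed in the brains of male mice that were 8 weeks old, and RNA was taken from the tumour mass after the brains were removed on day 16. The 12 arrays fell into 4 groups of 3. TMZ mice received 30 mg/kg into the peritoneum, Anti-PD-1 mice received 10 mg/kg antibody into a vein 2 times a week, Combination mice received both agents, and Control mice carried the same implanted cells. The labels do not say what was injected into Control mice, or whether the arrays of a group came from separate animals, so p-values measure the spread between these arrays, which may be technical.

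Collagens are triple helices of 3 chains, built from 1, 2 or 3 different genes. Fibrillar collagens form the cables of interstitial matrix, type IV forms the sheet of basement membranes, type VI forms beaded filaments around cells, and FACIT collagens sit on the surface of fibrils. Healthy brain parenchyma holds little fibrillar collagen, and the main collagen-bearing structures there are the meninges and the basement membranes of vessels. Gliomas and their vessels can lay down collagens that bind integrins and discoidin domain receptors on nearby cells.

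Values are log2 signals after RMA, so a difference of 1 is a doubling. Signals of different probe sets do not compare as amounts of RNA, and each gene was compared only with itself across arrays. Mean signals of the members ran between 3.98 for Col10a1 and 7.38 for Col6a1, and 30 of the 44 lay below the median gene at 5.72. No detection call is used here, so how far a dim member stands above background was not analysed. Arrays correlated at 0.984 to 0.991 over all probe sets. On the first principal component Control replicate 3 lay at -1.28, away from Control replicates 1 and 2 at -20.1 and -26.4 and among the treated arrays, and on the third component TMZ replicate 2 stood apart at 20.9. Neuron markers had signals on every array (Snap25, a synaptic vesicle fusion protein, averaged 12.26 in TMZ, 12.27 in Anti-PD-1, 12.20 in Combination and 12.22 in Control), and the labels do not say how much brain each mass held. None of the 7 listed haemoglobin and blood cell genes was measured under a single symbol.

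Col11a1, a chain of the minor fibrillar collagen XI, fell with TMZ and with anti-PD-1, and no other collagen passed an adjusted p of 0.05 in any comparison, with Control or between treatments. Below it, Col2a1, Col3a1, Col9a1, Col12a1 and Col4a1 were dimmer on every treated array than on any Control array without passing the test. The genes of type I, type V alpha 1 and type VI alpha 1 to alpha 3 collagens showed no such shift by the probe sets used. Across all members the median log2 difference from Control was -0.067 with TMZ, -0.067 with anti-PD-1 and -0.11 with the combination, beside 0.0061 with TMZ, 0.0078 with anti-PD-1 and 0.00048 with the combination over all genes. Over the 14 collagens above the median gene the medians were nearer to 0, at -0.0016 with TMZ, -0.0085 with anti-PD-1 and -0.049 with the combination. In bulk tissue, fewer cells that carry a transcript and less transcript per cell cannot be told apart.

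Col11a1 had log2 signals of 5.50, 5.32 and 5.35 on TMZ arrays, 5.36, 5.34 and 5.35 on Anti-PD-1 arrays and 5.64, 5.58 and 5.41 on Combination arrays, against 6.05, 6.28 and 5.83 on Control arrays. The groups did not overlap: the highest treated array, Combination replicate 1, lay below the lowest Control array, replicate 3, and the Anti-PD-1 arrays were almost level. Group means were 5.39 ± 0.095 with TMZ, 5.35 ± 0.0074 with anti-PD-1 and 5.54 ± 0.12 with the combination, against 6.05 ± 0.23 in Control (SD, n = 3 each). The difference from Control was -0.67 ± 0.10 (SE) with TMZ, 1.59-fold lower, at an adjusted p of 0.0461 by limma. With anti-PD-1 it was -0.70 ± 0.10, 1.63-fold lower, at an adjusted p of 0.0326. With the combination it was -0.51 ± 0.10, 1.42-fold lower, and missed the threshold at an adjusted p of 0.140. TMZ minus Control called 1 of 44 members, beside 0.0992% of all genes (0.0812% lower). Anti-PD-1 minus Control also called 1 of 44, beside 0.293% of all genes (0.212% lower), and Combination minus Control called 0 of 44 members and 0 of all genes.

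Most fits that left out 1 array lost these calls, and calls over all genes fell in them too. Apart from the fit without Control replicate 3, all genes had 0 to 7 calls with TMZ, against 22 with all arrays. With anti-PD-1 they had 1 to 50, against 65. When each array was left out in turn, Col11a1 passed with TMZ in 1 of the 12 fits, the one without Control replicate 3, with adjusted p between 0.00388 and 0.296. With anti-PD-1 it passed in 2 of 12, without Control replicate 3 or TMZ replicate 1 (adjusted p 0.00235 to 0.132), and with the combination in 1 of 12, without Control replicate 3 (0.0136 to 0.395). The difference stayed between -0.78 and -0.55 with TMZ, between -0.82 and -0.59 with anti-PD-1 and between -0.62 and -0.40 with the combination over those fits. Without Control replicate 3, the count of called collagens was 4 with TMZ (Col2a1, Col9a1, Col11a1 and Col12a1), 5 with anti-PD-1 (Col2a1, Col3a1, Col8a1, Col9a1 and Col11a1) and 4 with the combination. That fit also called more of all genes, 363 (1.64%) with TMZ, 686 (3.09%) with anti-PD-1 and 282 (1.27%) with the combination, against 22, 65 and 0 with all arrays.

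Promoter sequence is shown for Col11a1, Col9a1 and Col3a1, members that lay below Control together and have entries on chromosomes 1 and 3 in the promoter table. Col4a1 lay below Control with them, and its entry on chromosome 8 is not printed. Each run is the 250 bases upstream of an annotated transcript start from RefSeq on GRCm38.p6, written 5′ to 3′ along the gene's strand, which is plus for all of them. Capitals mark 4 motifs searched on either strand, the TATA box TATAAA, the CCAAT box CCAAT, the GC box GGGCGG and the SOX-type core AACAAT, which is a short stretch bound by SOX factors such as those that drive cartilage collagens.
Col11a1, chr3:114030290-114030539: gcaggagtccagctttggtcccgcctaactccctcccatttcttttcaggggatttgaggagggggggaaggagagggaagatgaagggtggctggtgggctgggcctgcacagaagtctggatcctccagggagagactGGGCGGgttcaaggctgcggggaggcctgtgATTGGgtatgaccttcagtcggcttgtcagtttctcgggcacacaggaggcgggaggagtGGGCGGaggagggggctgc
Col9a1, start 1, chr1:24177360-24177609: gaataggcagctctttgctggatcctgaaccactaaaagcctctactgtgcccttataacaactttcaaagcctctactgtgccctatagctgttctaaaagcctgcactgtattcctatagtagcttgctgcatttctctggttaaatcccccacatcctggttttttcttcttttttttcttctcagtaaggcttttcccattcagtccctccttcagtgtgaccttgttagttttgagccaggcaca
Col9a1, start 2, chr1:24194953-24195202: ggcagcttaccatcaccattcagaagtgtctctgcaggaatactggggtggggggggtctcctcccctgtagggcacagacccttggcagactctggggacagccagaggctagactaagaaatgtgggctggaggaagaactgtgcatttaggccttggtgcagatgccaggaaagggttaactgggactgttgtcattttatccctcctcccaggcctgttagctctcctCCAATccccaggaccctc
Col3a1, chr1:45311288-45311537: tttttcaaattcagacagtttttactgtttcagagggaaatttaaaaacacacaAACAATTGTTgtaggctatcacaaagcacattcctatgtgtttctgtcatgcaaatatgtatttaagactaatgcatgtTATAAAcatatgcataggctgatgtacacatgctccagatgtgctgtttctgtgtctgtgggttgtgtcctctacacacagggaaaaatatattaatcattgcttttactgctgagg
The Col11a1 window held 2 GC boxes and 1 CCAAT box, which was read on the minus strand, at 62.4% GC. The window before the first start of Col9a1 held none of the motifs, and that before the second start held 1 CCAAT box. The Col3a1 window, at 35.2% GC, held 1 TATA box and 2 SOX-type cores that overlap each other on opposite strands. Of the 44 collagens 35 matched the table, with 38 windows. A GC box was present in 57.9% of those windows and in 32.7% of all 32851 promoter windows, a CCAAT box in 34.2% and 33.8%, a TATA box in 13.2% and 12.4%, and a SOX-type core in 2.63% and 9.42%. The median GC content was 59.0% for collagen windows and 52.4% for all windows. The Col4a1 window, which is not printed, held 1 CCAAT box at 74.4% GC. None of these motifs was present for all 3 genes printed, and a match or its absence is only a description of letters.

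Among the fibrillar collagens, which numbered 11, Col2a1 stood next to Col11a1. Col2a1 encodes the only chain of type II collagen, the main collagen of cartilage and of the vitreous. Its log2 signals were 5.90, 5.56 and 5.73 with TMZ, 5.97, 5.65 and 5.69 with anti-PD-1 and 5.91, 5.91 and 5.88 with the combination, against 6.43, 6.46 and 6.13 in Control. Every treated array lay below every Control array, and the Combination arrays were the closest together. The differences from Control were -0.61 ± 0.11 with TMZ, -0.57 ± 0.11 with anti-PD-1 and -0.44 ± 0.11 with the combination, and none passed (adjusted p 0.106, 0.0612 and 0.195).

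Col3a1, the chain of type III collagen that accompanies type I in vessel walls and soft connective tissue, had log2 signals of 5.38, 5.29 and 5.32 with TMZ, 4.997, 5.33 and 5.10 with anti-PD-1 and 5.33, 5.55 and 4.96 with the combination. Control arrays had 6.03, 5.94 and 5.69. The groups did not overlap, the TMZ arrays were close together and the Combination arrays were spread over more than the Control arrays. Col3a1 gave the lowest difference of any collagen with anti-PD-1, -0.74 ± 0.14 or 1.67-fold lower, with an adjusted p of 0.0553. With TMZ it was -0.55 ± 0.14 (adjusted p 0.181) and with the combination -0.60 ± 0.14 (adjusted p 0.170).

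**Figure D1:**
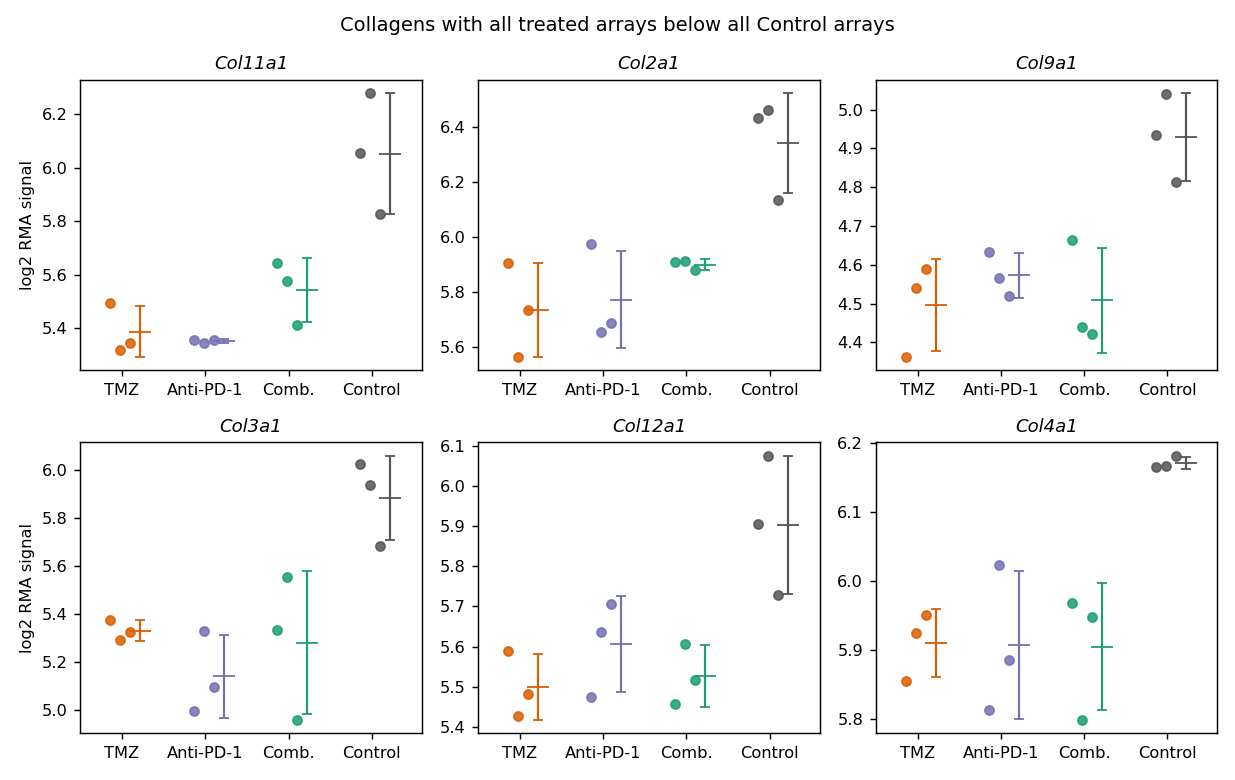
Log2 RMA signal (y axis, a separate range per panel) of the 6 collagens with no overlap between the 9 treated arrays and the 3 Control arrays. Points are arrays, and bars are the group mean ± SD (n = 3). For Col11a1 the treated arrays run between 5.32 and 5.64 and the Control arrays between 5.83 and 6.28.

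Type I collagen, the most abundant collagen of connective tissue, did not share this pattern. Col1a1 had log2 signals of 6.55, 6.27 and 6.51 with TMZ, 6.42, 6.53 and 6.50 with anti-PD-1 and 6.52, 6.44 and 6.20 with the combination, against 6.31, 6.49 and 6.44 in Control. The 4 groups lay within one another, and the differences of 0.025 with TMZ, 0.065 with anti-PD-1 and -0.030 with the combination had adjusted p of 0.949, 0.817 and 0.932. Its 95% intervals were -0.19 to 0.24 with TMZ, -0.15 to 0.28 with anti-PD-1 and -0.24 to 0.18 with the combination. Col1a2, the partner chain in the type I helix, averaged 6.02 ± 0.079 with TMZ, 6.05 ± 0.11 with anti-PD-1 and 6.04 ± 0.24 with the combination, against 5.90 ± 0.10 in Control (SD, n = 3 each), and overlapped in each comparison. Of the type V chains, which join type I in mixed fibrils, Col5a2 lay lower without overlap with TMZ (-0.31, adjusted p 0.306) and with the combination (-0.30, adjusted p 0.320), and Col5a1 had differences of -0.045 with TMZ, -0.12 with anti-PD-1 and -0.052 with the combination. Col5a3 arrays lay at 5.49 to 5.66 with anti-PD-1 and 5.42 to 5.57 with the combination, below Control at 5.71 to 5.91. Its TMZ arrays overlapped Control, and its adjusted p among the 4 groups was 0.447 by the limma F test. Col24a1, another minor fibrillar chain, had log2 differences of 0.075 with TMZ, -0.080 with anti-PD-1 and -0.081 with the combination.

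The FACIT collagens held 2 members of the set without overlap. Col9a1, a chain of type IX collagen that coats type II fibrils, had log2 signals of 4.36, 4.54 and 4.59 with TMZ, 4.63, 4.57 and 4.52 with anti-PD-1 and 4.66, 4.44 and 4.42 with the combination, against 4.93, 5.04 and 4.81 in Control. All treated arrays lay below the Control arrays. The differences were -0.43 ± 0.089 with TMZ, -0.36 ± 0.089 with anti-PD-1 and -0.42 ± 0.089 with the combination, with adjusted p of 0.124, 0.107 and 0.148. Col12a1, which sits on type I fibrils, had log2 signals of 5.59, 5.43 and 5.48 with TMZ, 5.48, 5.64 and 5.71 with anti-PD-1 and 5.46, 5.61 and 5.52 with the combination, against 5.91, 6.07 and 5.73 in Control. No treated array reached Control, where Anti-PD-1 replicate 3 and Control replicate 3 lay next to each other. The differences of -0.40 with TMZ, -0.30 with anti-PD-1 and -0.38 with the combination had adjusted p of 0.143, 0.195 and 0.185.

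Other FACIT members were mixed. Col20a1 averaged 5.25 ± 0.16 with TMZ, 5.34 ± 0.25 with anti-PD-1 and 5.15 ± 0.037 with the combination, against 5.53 ± 0.072 in Control, and the arrays did not overlap with TMZ or with the combination (differences -0.28 and -0.39, adjusted p 0.389 and 0.238). Col14a1, a FACIT collagen of tendon and skin, had differences of 0.0044 with TMZ, 0.26 with anti-PD-1 and 0.25 with the combination (adjusted p 0.993, 0.371 and 0.459). Col19a1, found in interneurons of the mouse brain, had log2 differences of 0.027 with TMZ, 0.22 with anti-PD-1 and 0.091 with the combination. Col9a2, the FACIT member with the highest mean signal, averaged 6.96 ± 0.12 with TMZ, 6.96 ± 0.13 with anti-PD-1 and 6.795 ± 0.19 with the combination, against 6.96 ± 0.16 in Control.

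Collagens II, IX and XI form one kind of fibril in cartilage, and their 6 genes were grouped after the values were seen, so their counts carry no test. All 6 had negative differences with TMZ, with anti-PD-1 and with the combination, with medians of -0.33 with TMZ, -0.26 with anti-PD-1 and -0.30 with the combination. The larger differences were those of Col2a1, Col9a1 and Col11a1. Col9a3 had log2 differences of -0.072 with TMZ, -0.16 with anti-PD-1 and -0.18 with the combination, Col9a2 at -0.0015 with TMZ, -0.0039 with anti-PD-1 and -0.17 with the combination and Col11a2 at -0.23 with TMZ, -0.051 with anti-PD-1 and -0.022 with the combination, and of those 9 values only Col11a2 with TMZ had an unadjusted p under 0.05, at 0.0499.

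In type IV collagen, Col4a1 lay below Control on every treated array, and Col4a2, which starts beside it, overlapped Control. Col4a1 and Col4a2 encode the chains of the common basement membrane network, alpha 1 and alpha 2, and RefSeq places their starts 21 bases apart on opposite strands. Col4a1 had log2 signals of 5.85, 5.925 and 5.95 with TMZ, 5.81, 6.02 and 5.88 with anti-PD-1 and 5.97, 5.80 and 5.95 with the combination, against 6.16, 6.17 and 6.18 in Control. The Control arrays were almost level and every treated array lay below them, with differences of -0.26 with TMZ, -0.26 with anti-PD-1 and -0.27 with the combination (adjusted p 0.205, 0.127 and 0.195). Col4a2 had log2 signals of 6.07, 6.10 and 6.15 with TMZ, 6.28, 6.28 and 6.06 with anti-PD-1 and 6.09, 6.09 and 6.00 with the combination, against 6.12, 6.09 and 6.12 in Control. Its groups overlapped throughout, with differences of -0.0017 with TMZ, 0.095 with anti-PD-1 and -0.049 with the combination and 95% intervals in the same comparisons of -0.15 to 0.15, -0.055 to 0.25 and -0.20 to 0.10. The difference between the 2 genes was not tested. Of the other 4 type IV chains, Col4a3 lay below Control without overlap with the combination (-0.38, adjusted p 0.221), and Col4a4, Col4a5 and Col4a6 overlapped Control in each comparison. RefSeq also places the starts of Col4a5 and Col4a6 on opposite strands, 1343 bases apart.

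**Figure D2:**
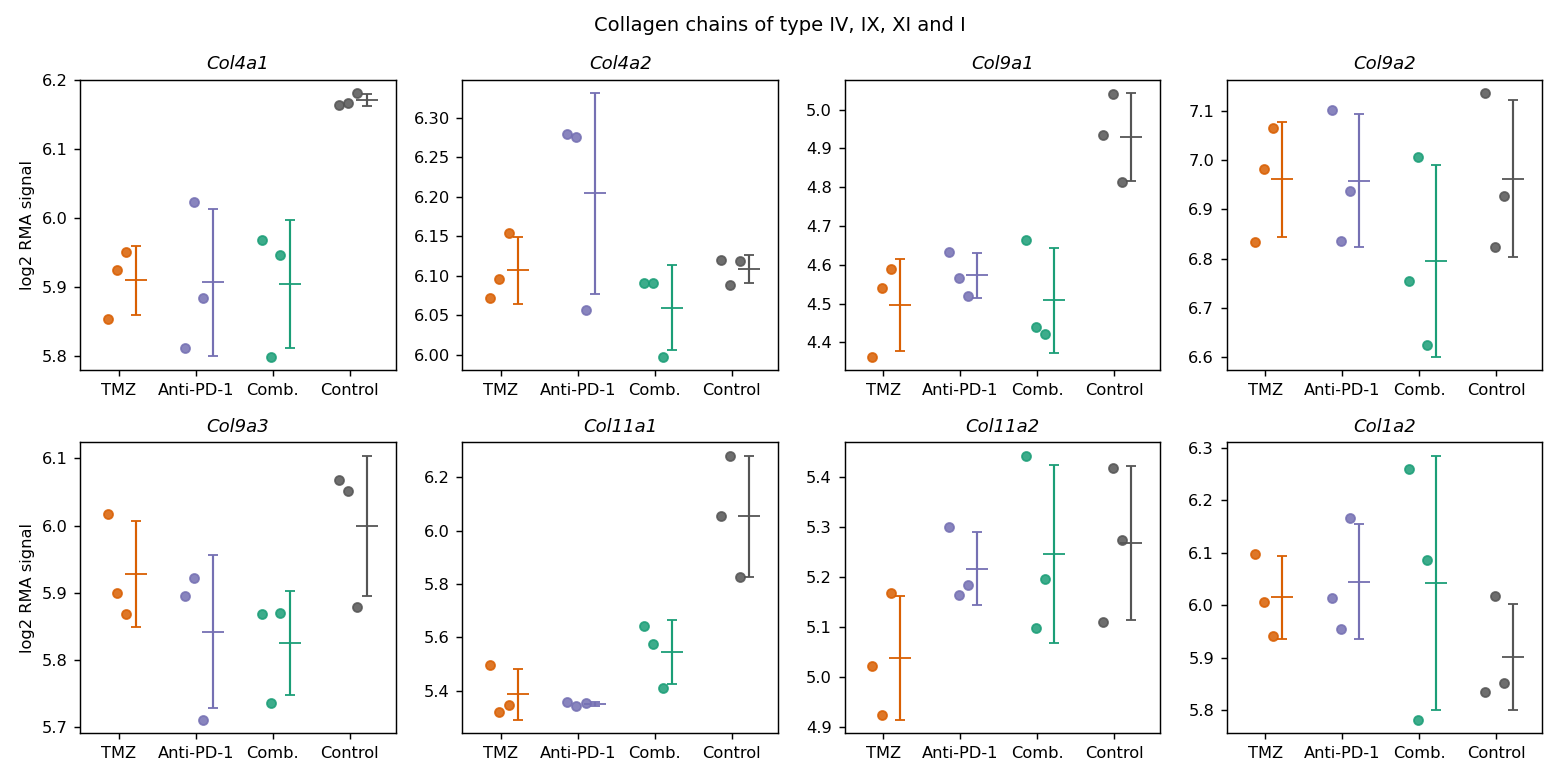
Log2 RMA signal (y axis, a separate range per panel) of chains of type IV, IX and XI collagen and of Col1a2. Points are arrays, and bars are the group mean ± SD (n = 3). Col4a1, Col9a1 and Col11a1 have Control arrays above all treated arrays, and Col4a2, Col9a2, Col9a3, Col11a2 and Col1a2 have overlapping groups in at least 1 comparison.

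Chains of one helix, or of one network for type VIII, were also set against each other across the 12 arrays, in 11 pairs from types I, IV, V, VI, VIII, IX and XI. Their r holds shifts between the groups as well as variation within them. No pair passed after Benjamini-Hochberg adjustment by a permutation test of 100000 resamples, two-sided. The lowest unadjusted p was that of Col6a2 and Col6a3 at 0.0381 (r = -0.60, rho = -0.50, adjusted p 0.419), and r was -0.28 when the 2 arrays farthest from the median were left out. Col11a1 with Col11a2 had r = 0.44 (p 0.152, rho 0.42) and 0.43 without those arrays, and Col4a1 with Col4a2 had r = -0.034 (p 0.921, rho 0.19). Col1a1 with Col1a2 had r = 0.18 (p 0.579, rho 0.31), and 0.58 without TMZ replicate 2 and Combination replicate 3. Over deviations from the group means, with no test, r was -0.68 for Col6a2 with Col6a3 and 0.37 for Col11a1 with Col11a2. It was 0.10 for Col4a1 with Col4a2 and 0.17 for Col1a1 with Col1a2.

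Type VI collagen, whose chains alpha 1, alpha 2 and alpha 3 build filaments around cells and vessels, included Col6a1, the member with the highest mean signal. Col6a1 had log2 signals of 7.37, 7.49 and 7.33 with TMZ, 7.11, 7.42 and 7.47 with anti-PD-1 and 7.32, 7.55 and 7.44 with the combination, against 7.28, 7.31 and 7.45 in Control. The groups overlapped, and the 95% intervals of the difference were -0.17 to 0.27 with TMZ, -0.23 to 0.21 with anti-PD-1 and -0.13 to 0.31 with the combination. Col6a5, a later-described alternative chain, had log2 signals of 4.38, 4.46 and 4.54 with TMZ, 4.54, 4.17 and 4.39 with anti-PD-1 and 3.996, 4.45 and 4.08 with the combination, against 4.52, 4.61 and 4.53 in Control. The Combination arrays lay below Control, 2 of them widely, with a difference of -0.37 ± 0.12 (adjusted p 0.265). Col6a4 had log2 differences of 0.10 with TMZ, 0.19 with anti-PD-1 and 0.12 with the combination, and its Anti-PD-1 arrays of 4.20, 4.21 and 4.22 lay above Control arrays of 3.88, 4.12 and 4.05 (adjusted p 0.356).

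Among the short-chain network collagens, Col8a1 and Col10a1 had differences of opposite sign, and neither passed the test. Col8a1, a chain of type VIII collagen made by vascular smooth muscle and corneal endothelium, had log2 signals of 5.69, 5.75 and 5.73 with TMZ, 5.30, 5.65 and 5.41 with anti-PD-1 and 5.78, 5.68 and 5.70 with the combination, against 5.83, 5.88 and 5.69 in Control. Anti-PD-1 was the only group with every array below the Control arrays, with a difference of -0.35 ± 0.087 (adjusted p 0.110), beside -0.081 with TMZ and -0.079 with the combination. Combination minus Anti-PD-1 was 0.27 ± 0.087 and TMZ minus Anti-PD-1 was 0.27 ± 0.087, both without overlap, at unadjusted p of 0.0101 and 0.0104 with adjusted p close to 1. Col10a1, the collagen of hypertrophic cartilage, had log2 signals of 4.001, 4.11 and 4.08 with TMZ, 3.99, 4.12 and 4.28 with anti-PD-1 and 4.05, 3.77 and 3.93 with the combination, against 3.94, 3.56 and 3.93 in Control. Its differences were 0.26 with TMZ, 0.32 with anti-PD-1 and 0.10 with the combination (adjusted p 0.430, 0.235 and 0.764), with no overlap for the single agents.

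The remaining classes held no called member. Col18a1, the multiplexin of vessel basement membranes that carries endostatin, averaged 4.94 ± 0.15 with TMZ, 4.84 ± 0.016 with anti-PD-1 and 4.87 ± 0.17 with the combination, against 5.10 ± 0.13 in Control (SD, n = 3 each), and lay below Control without overlap with anti-PD-1 and with the combination (adjusted p 0.285 and 0.401). Col15a1, the other multiplexin, had log2 differences of -0.14 with TMZ, -0.061 with anti-PD-1 and -0.20 with the combination. Among transmembrane collagens, Col13a1 had log2 differences of 0.0049 with TMZ, -0.11 with anti-PD-1 and -0.30 with the combination, with Combination arrays of 5.49, 5.19 and 5.43 below Control arrays of 5.68, 5.76 and 5.56. Col25a1, a transmembrane collagen of neurons found in amyloid plaques, had log2 differences of -0.071 with TMZ, 0.025 with anti-PD-1 and -0.050 with the combination, and Col23a1 at 0.098 with TMZ, 0.029 with anti-PD-1 and 0.027 with the combination. Col7a1, the anchoring fibril collagen, had log2 differences of -0.099 with TMZ, -0.060 with anti-PD-1 and -0.18 with the combination, with an adjusted p of 0.300 for the combination, and Col26a1 had log2 differences of 0.029 with TMZ, 0.069 with anti-PD-1 and 0.15 with the combination.

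**Figure D3:**
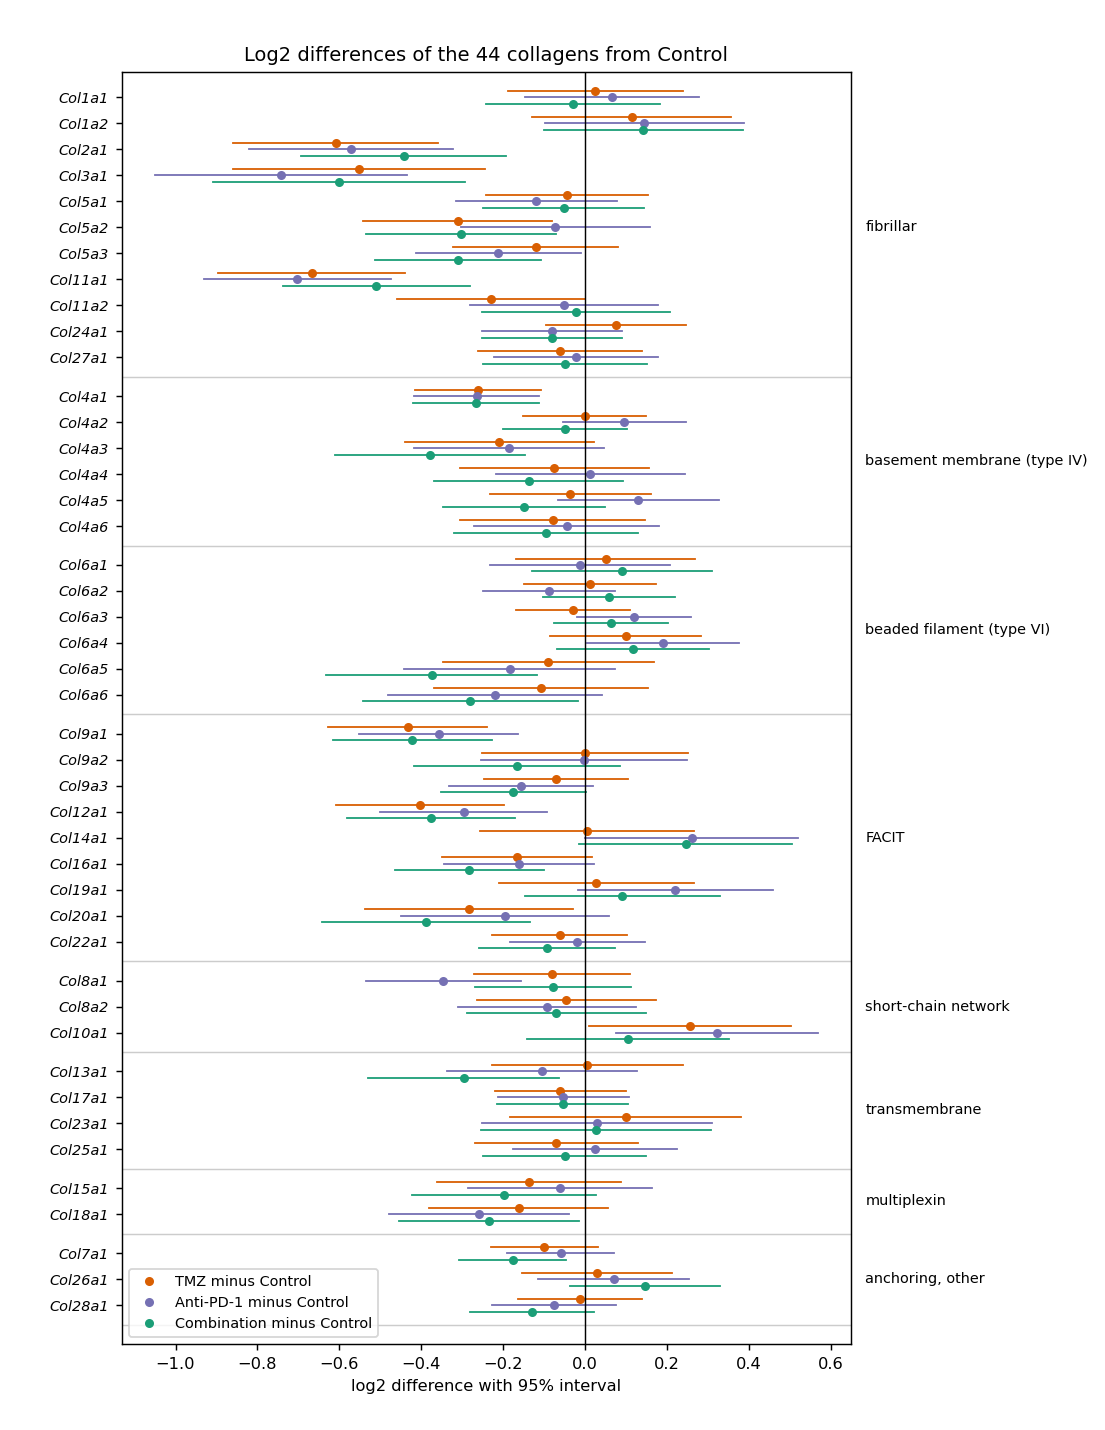
Log2 difference from Control (x axis) of each of the 44 collagens (y axis, grouped by class as named on the right) with TMZ, anti-PD-1 and the combination. Points are fitted differences, and lines are their 95% intervals from limma, not adjusted for the number of genes. Col11a1, Col2a1 and Col3a1 lie farthest to the left, and Col10a1 lies right of 0 in all comparisons.

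Counted over the class, more collagens lay below Control than above it. Negative differences numbered 32 of 44 with TMZ (72.7%), 31 with anti-PD-1 (70.5%) and 34 with the combination (77.3%), where all genes had 47.9%, 47.6% and 49.8%. At an unadjusted p under 0.05, 9 collagens were lower and 1 higher with TMZ (20.5% and 2.27%), beside 5.78% and 5.47% of all genes. With anti-PD-1 9 were lower and 2 higher (20.5% and 4.55%), beside 6.79% and 6.70%, and with the combination 16 were lower and 0 higher (36.4%), beside 6.18% and 5.43%. Arrays did not overlap, in the lower direction, for 10 collagens with TMZ (6.81% of all genes), 9 with anti-PD-1 (8.33%) and 18 with the combination (7.82%). In the higher direction they did not overlap for 1 with TMZ (8.19%), 3 with anti-PD-1 (10.3%) and 0 with the combination (8.98%). These comparisons share the Control arrays, so their counts are not separate observations. All 9 treated arrays lay below all 3 Control arrays for 6 of 44 collagens (13.6%), beside 1.87% of all genes, and above them for 0 of 44, beside 2.38%. Without Control replicate 3 the count was 8 of 44, beside 7.61% of all genes, and leaving out any other single array gave 6 to 8, beside at most 2.98%. The unadjusted test among the 4 groups gave p under 0.05 for 13 of 44 (29.5%), beside 10.1% of all genes, and with adjustment it called 0 collagens and 0.00451% of all genes.

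By class and with the combination, 10 of 11 fibrillar members had negative differences (5 with an unadjusted p under 0.05), as did 7 of 9 FACIT members (4), 6 of 6 type IV members (2) and 2 of 6 type VI members (2). Of all genes, 49.8% had negative differences there and 6.18% were lower at that p. With TMZ, 8 of 11 fibrillar, 6 of 6 type IV and 3 of 6 type VI members were negative. With anti-PD-1 these were 9 of 11, 3 of 6 and 4 of 6. Medians by class with the combination were -0.081 for fibrillar, -0.18 for FACIT, -0.14 for type IV and 0.061 for type VI. With TMZ they were -0.12 for fibrillar, -0.072 for FACIT, -0.077 for type IV and -0.0092 for type VI. With anti-PD-1 they were -0.080 for fibrillar, -0.16 for FACIT, -0.017 for type IV and -0.051 for type VI.

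Setting the treatments against each other separated few collagens. Combination minus TMZ, Combination minus Anti-PD-1 and TMZ minus Anti-PD-1 each called 0 of 44 members and 0 of all genes. At an unadjusted p under 0.05, Combination minus TMZ had Col13a1 and Col6a5 lower (2.43% of all genes), Combination minus Anti-PD-1 had Col4a5 lower (2.90%) and Col8a1 higher (2.01%), and TMZ minus Anti-PD-1 had Col5a2 and Col6a3 lower (2.39%) and Col8a1 higher (2.11%). These names were taken after their values were seen. For Col11a1 the difference was 0.16 (95% interval -0.071 to 0.39) for Combination minus TMZ, 0.19 (-0.035 to 0.42) for Combination minus Anti-PD-1 and 0.035 (-0.19 to 0.26) for TMZ minus Anti-PD-1. Col3a1 had intervals of -0.36 to 0.26 for Combination minus TMZ, -0.17 to 0.45 for Combination minus Anti-PD-1 and -0.12 to 0.50 for TMZ minus Anti-PD-1. For Col2a1 the same intervals were -0.084 to 0.42, -0.12 to 0.38 and -0.29 to 0.21.

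Whether the agents added up was tested as the interaction, the effect of TMZ on top of anti-PD-1 minus its effect in Control. It called 0 of 44 collagens, beside 0.00451% of all genes. Col11a1 had the largest value among the collagens, 0.86 ± 0.15 at an adjusted p of 0.142, followed by Col2a1 at 0.74 ± 0.16 (adjusted p 0.200) and Col3a1 at 0.69 ± 0.20 (adjusted p 0.352). Thus the combined treatment lay above the sum of the single differences for these genes without passing the test. At an unadjusted p under 0.05, 7 members were higher (4.65% of all genes), which were Col2a1, Col3a1, Col4a1, Col8a1, Col9a1, Col11a1 and Col12a1, and 1 was lower (4.27%), Col10a1 at -0.47. Without Control replicate 3 the interaction called 2 collagens, Col2a1 and Col11a1, and 198 of all genes (0.893%), against 1 of all genes with all arrays. This contrast is built from the same arrays as the differences from Control. Control enters it with a plus sign, so a gene lower by a like amount in every treated group has a positive value. All of the 7 but Col8a1 were already set apart as below Control on every treated array. Their count here is thus not a separate observation.

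Genes that make, cut, bind and take up collagen were read from 5 lists with 79 entries, of which 72 were measured. Of these, 1 passed, with anti-PD-1, where 0.293% of all genes did. Ddr2, a receptor tyrosine kinase that fibrillar collagen activates, had log2 signals of 5.75, 5.73 and 5.70 with TMZ, 5.47, 5.65 and 5.62 with anti-PD-1 and 5.7998, 5.71 and 5.83 with the combination, against 6.40, 6.74 and 6.06 in Control. Every treated array lay below every Control array, and Control replicate 3 was the nearest to them. Ddr2 fell by 0.82 ± 0.13 with anti-PD-1, 1.77-fold lower (adjusted p 0.0421). With TMZ and with the combination the differences were -0.68 and -0.62 (adjusted p 0.107 and 0.146). Leaving out each array in turn, the anti-PD-1 call remained in 2 of 12 fits, those without Control replicate 3 or TMZ replicate 1, with adjusted p between 0.00124 and 0.154. Calls over all genes were 686 and 50 in those 2 fits and 1 to 18 in the others, against 65 with all arrays. Of the 9 measured receptors, 1 passed with anti-PD-1 and 0 with TMZ or the combination. Negative differences numbered 6 of 9 with TMZ, 8 with anti-PD-1 and 7 with the combination, beside 47.9%, 47.6% and 49.8% of all genes. Itgb1, the beta chain of the collagen-binding integrins, averaged 7.51 ± 0.0038 with TMZ, 7.51 ± 0.013 with anti-PD-1 and 7.51 ± 0.10 with the combination, against 7.78 ± 0.23 in Control, and Itga2 had log2 differences of -0.19 with TMZ, -0.33 with anti-PD-1 and -0.13 with the combination.

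None of the 11 measured processing and crosslinking genes passed. Pcolce, which speeds the cutting of procollagen ends, had log2 signals of 6.65, 6.49 and 6.44 with TMZ, 6.33, 6.28 and 6.33 with anti-PD-1 and 6.63, 6.59 and 6.46 with the combination, against 7.41, 7.85 and 6.69 in Control. No treated array reached the lowest Control array, and the differences were -0.79 with TMZ, -1.01 with anti-PD-1 and -0.76 with the combination (adjusted p 0.203, 0.0661 and 0.221). Of 17 measured modification and folding genes 0 passed in any comparison with Control. Crtap, part of the complex that hydroxylates a proline of fibrillar chains, had log2 differences of -0.39 with TMZ, -0.55 with anti-PD-1 and -0.45 with the combination, P4hb, the beta subunit of prolyl hydroxylase, at -0.19 with TMZ, -0.28 with anti-PD-1 and -0.23 with the combination, and P4ha2, a catalytic subunit of that enzyme, at 0.19 with TMZ, 0.11 with anti-PD-1 and 0.15 with the combination. Mia3, which loads procollagen for export, had log2 differences of 0.16 with TMZ, 0.097 with anti-PD-1 and 0.15 with the combination.

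Of 14 degradation and uptake genes 0 passed. Timp1, an inhibitor of matrix metalloproteases, had log2 signals of 4.42, 4.04 and 4.07 with TMZ, 4.07, 4.06 and 4.07 with anti-PD-1 and 4.26, 4.28 and 4.48 with the combination, against 5.39, 6.11 and 4.45 in Control. Its Control arrays spread over more than the difference between groups, Control replicate 3 lay below Combination replicate 3, and the differences of -1.14 with TMZ, -1.25 with anti-PD-1 and -0.98 with the combination had adjusted p of 0.200, 0.0997 and 0.252. Mmp2, a protease that cuts type IV collagen, had log2 differences of -0.58 with TMZ, -0.59 with anti-PD-1 and -0.46 with the combination, while Mmp16 had log2 differences of 0.13 with TMZ, 0.24 with anti-PD-1 and 0.17 with the combination and Timp3 at 0.12 with TMZ, 0.17 with anti-PD-1 and 0.19 with the combination. In the list of 21 other matrix genes 0 passed. Tnc, tenascin C of glioma matrix, had log2 differences of -0.44 with TMZ, -0.43 with anti-PD-1 and -0.20 with the combination, Hspg2, perlecan of basement membranes, at -0.26 with TMZ, -0.26 with anti-PD-1 and -0.24 with the combination, and Agrn, agrin, at 0.15 with TMZ, 0.18 with anti-PD-1 and 0.16 with the combination.

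**Figure D4:**
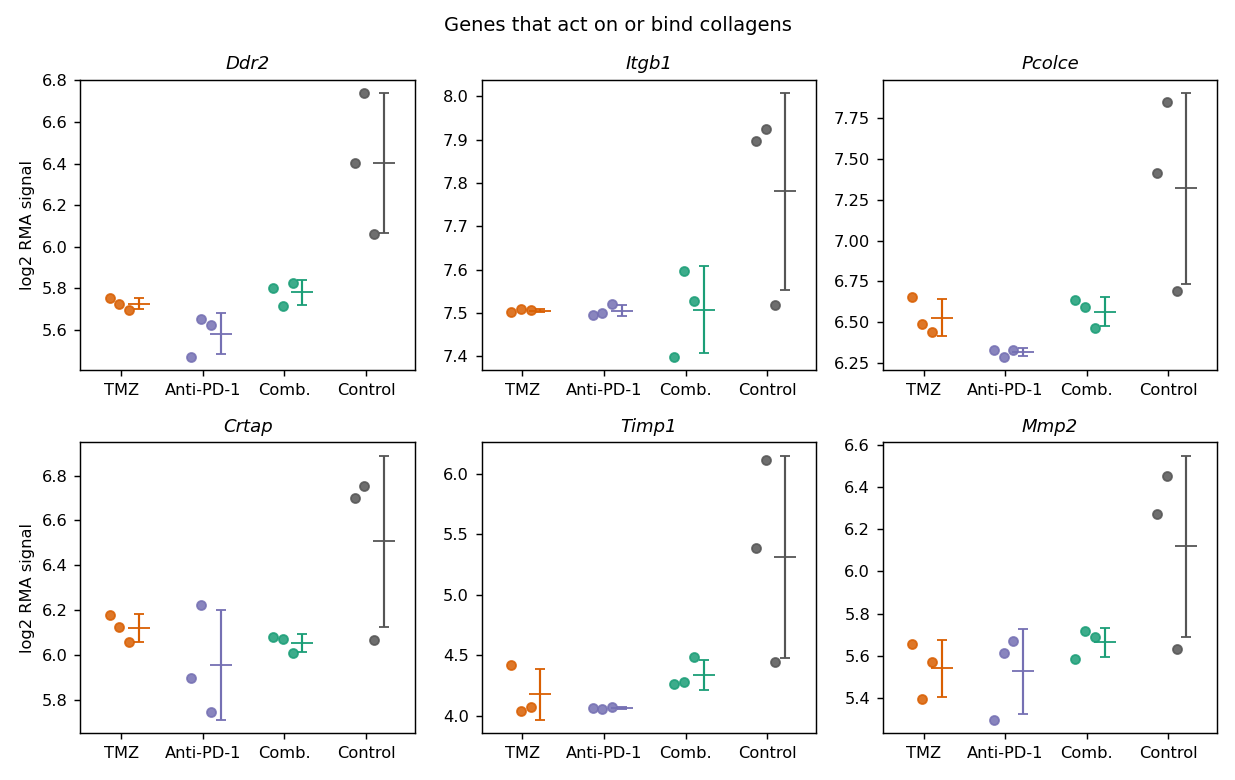
Log2 RMA signal (y axis, a separate range per panel) of 6 genes that bind, process or degrade collagen or inhibit its degradation. Points are arrays, and bars are the group mean ± SD (n = 3). Ddr2 and Pcolce have all treated arrays below all Control arrays, and for Timp1, Mmp2, Crtap and Itgb1 Control replicate 3 lies within or near the treated arrays.

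Markers of cells that could carry collagen transcripts were read beside these results. The 44 collagens together, as the mean deviation of each gene from its own mean over the arrays, scored -0.031 to -0.0069 in TMZ, -0.025 to 0.0022 in Anti-PD-1 and -0.11 to -0.016 in Combination, against 0.080 to 0.091 in Control. All treated arrays lay below all Control arrays, and Control replicate 3 lay with the other Control arrays. By class it did not. In Control replicates 1, 2 and 3 fibrillar members scored 0.16, 0.23 and 0.096, and FACIT members 0.14, 0.12 and 0.049. Type VI members scored -0.034, 0.036 and 0.072 there, and anchoring fibril and other members -0.021, 0.0051 and 0.094. Control replicate 3 was the lowest Control array for Col11a1, Col2a1, Col3a1, Col9a1 and Col12a1, and not for Col4a1. Fibroblast and meningeal markers scored -0.061 to 0.085 in TMZ, 0.0072 to 0.086 in Anti-PD-1 and -0.047 to 0.14 in Combination, against -0.11 to -0.086 in Control. The counts that follow stand beside all genes, of which 47.9% had negative differences with TMZ, 47.6% with anti-PD-1 and 49.8% with the combination, and of which 0.0992%, 0.293% and 0% were called in those comparisons. Of the 11 fibroblast and meningeal markers, 10 with TMZ, 9 with anti-PD-1 and 6 with the combination had positive differences, and 0 were called. The list shares Dcn and Lum with the matrix list, Pdgfra with the oligodendrocyte progenitor list and Thy1 with the neuron list. Endothelial markers had positive differences for 12 of 13 with TMZ, 11 with anti-PD-1 and 12 with the combination, with 0 called and medians of 0.20 with TMZ, 0.10 with anti-PD-1 and 0.16 with the combination. Their scores were -0.041, 0.38 and 0.012 in TMZ, against -0.12, -0.069 and -0.17 in Control, so TMZ replicate 2 stood highest, and without it the mean difference with TMZ was 0.10 in place of 0.24. Pericyte markers had positive differences for 8 of 12 with TMZ, 10 with anti-PD-1 and 7 with the combination, with 0 called. Mitosis genes had 15 of 15 at negative differences in each comparison, with 3 called for TMZ, 8 for anti-PD-1 and 0 for the combination, and scored -0.33 to -0.052 in TMZ, -0.32 to -0.20 in Anti-PD-1 and -0.20 to -0.13 in Combination, against 0.28 to 0.87 in Control. Glioma and progenitor markers had 7 of 8 at negative differences in each comparison. The called ones were Ccnd1, a cyclin of early cell cycle entry, with TMZ, and Ccnd1 and Myc, a growth transcription factor, with anti-PD-1, and 0 with the combination. Negative differences were found for 8 of 8 microglia markers with TMZ, 8 with anti-PD-1 and 5 with the combination, and for 6 of 8 monocyte and macrophage markers with TMZ, 7 with anti-PD-1 and 6 with the combination, with 0 called. Oligodendrocyte progenitor markers had 6 of 7 at negative differences in each comparison, with 0 called, and scored -0.12 to 0.052 in TMZ, -0.060 to -0.019 in Anti-PD-1 and -0.043 to -0.024 in Combination, against -0.0084 to 0.26 in Control. T cell markers had negative differences for 5 of 6 with TMZ, 4 with anti-PD-1 and 5 with the combination, with 0 called. Neuron markers had negative differences for 2 of 12 with TMZ, 1 with anti-PD-1 and 4 with the combination, oligodendrocyte markers for 7 of 8, 4 and 7 in the same comparisons, astrocyte markers for 4 of 9 in each and choroid plexus markers for 4 of 8, 7 and 3, with 0 called. The part of any of these cells in the lower signals of Col11a1 and the other collagens was not tested.

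**Figure D5:**
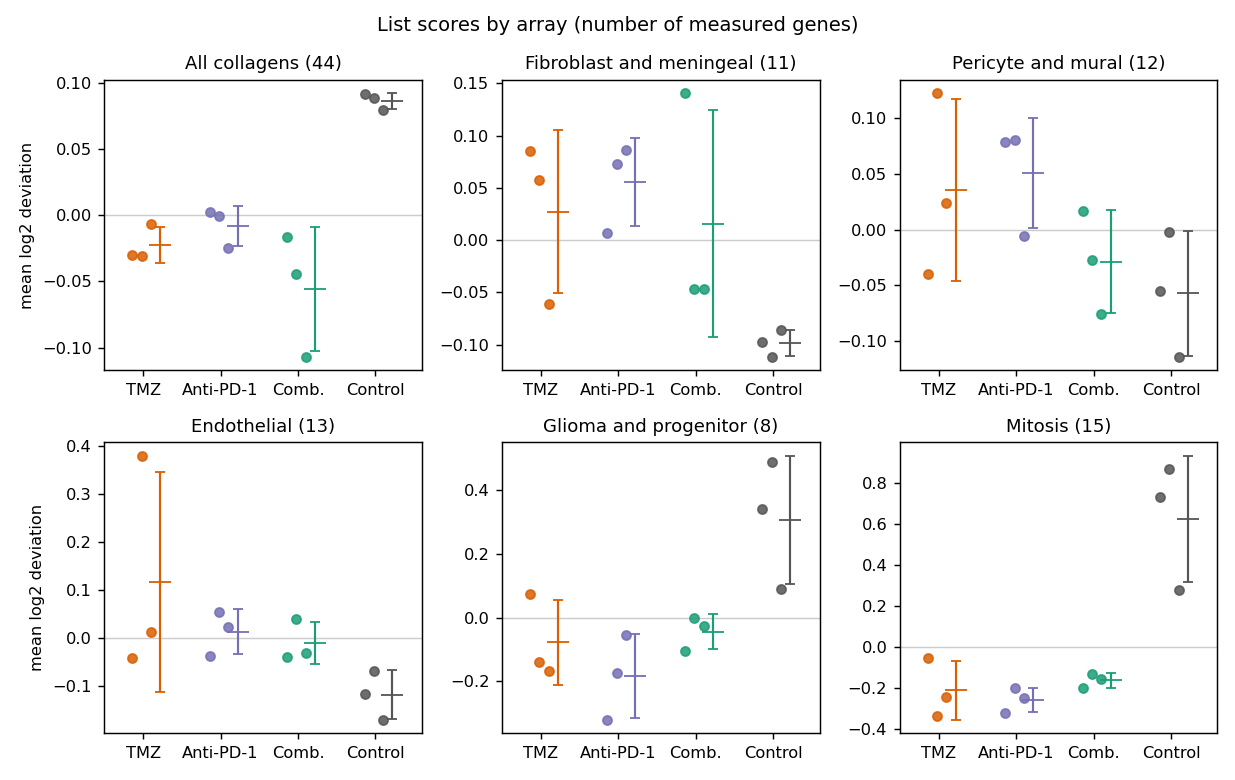
Mean log2 deviation of each list's genes from their own mean over the 12 arrays (y axis, a separate range per panel), per array, for all collagens and 5 marker lists, with the number of measured genes in brackets. Points are arrays, and bars are the group mean ± SD (n = 3). Collagens, glioma and mitosis lists have Control above the treated arrays. Control replicate 3 is level with the other Control arrays for the 44 collagens together but at 0.28 beside 0.73 and 0.87 for mitosis. By class, not drawn here, it was the lowest Control array for fibrillar and FACIT members and the highest for type VI members.

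For the 3 members with 2 probe sets, the dimmer probe set gave other values than the one used. Col1a2 had log2 differences of 0.017 with TMZ, 0.046 with anti-PD-1 and -0.20 with the combination by its dimmer probe set and at 0.11 with TMZ, 0.14 with anti-PD-1 and 0.14 with the combination by the one used. Col5a1 had log2 differences of -0.14 with TMZ, 0.14 with anti-PD-1 and -0.15 with the combination beside -0.045 with TMZ, -0.12 with anti-PD-1 and -0.052 with the combination, and Col6a1 at -0.23 with TMZ, -0.10 with anti-PD-1 and -0.057 with the combination beside 0.050 with TMZ, -0.013 with anti-PD-1 and 0.090 with the combination. The sign thus differed for Col1a2 with the combination, for Col5a1 with anti-PD-1 and for Col6a1 with TMZ and with the combination.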

How the data were processed

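Total RNA of tumour mass was hybridised to 12 Affymetrix arrays, 1 array per sample, and the deposited table held 41345 probe sets. Its values are log2 signals that the authors made with RMA in Affymetrix Expression Console, per the submitters' processing notes, with no version given in the sources used here. RMA pulls arrays to a common distribution, so a shift shared by all genes would not show. No value was missing, and the number of arrays limits the precision. Of the probe sets, 23521 had 1 symbol, 1814 several and 16010 were not listed in the platform annotation. One probe set per gene, the one with the highest mean over the arrays, gave 22180 genes.

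Differences were fitted with limma 3.58.1 in R 4.3.3 over all 12 arrays with 1 mean per group, moderated by eBayes, and p-values were adjusted by Benjamini-Hochberg over all 22180 genes at 0.05. The fit was tested on simulated data. The members and lists were chosen with earlier results of these data known. Genes were named by rule: members past the threshold, per class the member with the smallest F-test p and the one with the highest mean, the 5 largest rises and 5 largest falls per comparison with Control, and per matrix list the genes past the threshold or the 3 with the smallest p. Other members are named where a count of 5 or fewer, a partner chain or a second probe set called for it, after their values were seen. Replicate numbers were not used to pair the arrays in the main fit. Deviations from the group means correlated between -0.16 and 0.16 over 18 same-numbered pairs. Over 36 pairs of unlike number they correlated between -0.27 and 0.20. These values show no pairing but cannot establish that there was none. Alternatives were each array left out, the replicate number as a block, a variance trend, array weights, fits of only the groups compared, a filter on dim genes, other uses of probe sets, equal array medians and a covariate of normal brain markers.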

Additional observations from a re-analysis of the deposited data

How the results depend on the processing

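With TMZ the count of called collagens was 1 (Col11a1), where 22 of all genes were called. It was 0 with the replicate block (4 of all genes), with only the groups compared (0) and with the brain covariate (1). It was 0 too with all probe sets tested (1 of 41345 called). With genes below the median gene left out, which removes Col11a1 itself, it was 0 (14 of 11090 genes called). With the variance trend it was 2 (Col11a1 and Col2a1), where calls over all genes were 113 in place of 22. With anti-PD-1 the count of 1 was 3 with the variance trend and with array weights (Col11a1, Col2a1 and Col3a1), where calls over all genes were 381 and 260 in place of 65. It was 0 with only the groups compared (0 of all genes called) and with all probe sets tested (2 of 41345 called). It stayed at 1 with the replicate block, where 20 of all genes were called. With dim genes left out the 1 was Col2a1, where 205 of 11090 genes (1.85%) were called, beside 0.293% in the main fit. The adjusted p of Col11a1 ran between 0.0161 and 0.311 with TMZ and between 0.00560 and 0.180 with anti-PD-1 over the alternatives that kept all arrays. The test among the 4 groups called 0 collagens, and 2 with the variance trend (90 of all genes in place of 1). With each array left out in turn, the counts ran from 0 to 4 with TMZ, 0 to 5 with anti-PD-1, 0 to 4 with the combination, 0 to 2 for the interaction and 0 to 2 among the 4 groups, with the highest of each without Control replicate 3, where calls over all genes were 363, 686, 282, 198 and 245 in place of 22, 65, 0, 1 and 1. The 3 comparisons between treatments called 0 throughout. The medians of -0.067, -0.067 and -0.11 were -0.0016, -0.0085 and -0.049 over the 14 collagens above the median gene, and ran from -0.070 to -0.056, -0.094 to -0.042 and -0.13 to -0.076 with arrays left out. The counts at an unadjusted p under 0.05, an alternative chosen after seeing the data, were 2, 2 and 3 lower members among those 14, and otherwise moved by less than 1.5 times. Over all genes, bright and dim, 5.78%, 6.79% and 6.18% were lower at that p. The share over only the genes above the median gene is not given here, so no result is read from the counts among those 14. Chain pairs with r above 0.5 numbered 0, and 2 without the arrays farthest from the median. Over the named collagens in the comparisons with Control, 1546 values under the alternatives kept their side of the threshold, 17 passed it newly, 27 lost it and 0 called values reversed. Only a called value can be lost, so all 27 belonged to Col11a1 with TMZ or with anti-PD-1. With arrays left out, its call was kept in 1 of 12 fits with TMZ and in 2 of 12 with anti-PD-1. Most of the 1546 were never called, so that count does not measure how stable the Col11a1 calls were. How far the 30 members below the median gene stand above background was not analysed. The causes of these changes were not tested.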
